A study of Mus musculus with 9 samples.

Results

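Messenger RNA levels of 10 inflammasome and interleukin-1 genes were examined in sorted mouse acute myeloid leukemia cells. The genes were chosen by name for their function, by a rule that uses no measured value but was written with earlier results of these data known: Il1b, Il18, Il1rn and Il1r2 among the cytokines and decoys, Nlrp3, Nlrc4 and Pycard among the sensors and their adaptor, and Casp1, Casp4 and Gsdmd among the enzymes and the pore. All 10 were found among the 55536 genes of the table. The leukemia cells carried GFP and the MLL-AF9 fusion, a gene rearrangement of human leukemia that transforms mouse blood progenitors, and were grown in C57BL/6J recipients of 6 to 8 weeks of age that received no irradiation. Bone marrow was taken at day 18 and leukemia cells were sorted by c-kit, the receptor encoded by Kit that marks the more primitive cells. There were 9 libraries of bulk RNA, 3 of each of 3 groups: WT c-kit- cells and WT c-kit+ cells from leukemia made with wild-type cells, and c-kit+ cells labelled IRF7-/-, from leukemia made with cells of knockout mice. The labels do not say whether libraries of a group came from separate mice, so the p-values measure only the spread between these libraries.

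An inflammasome is a protein complex that forms in myeloid cells when a sensor such as NLRP3 or NLRC4 detects damage or bacterial products. The adaptor ASC, encoded by Pycard, links the sensor to caspase-1, which cuts the precursors of the cytokines interleukin-1 beta and interleukin-18 into their active forms and cuts gasdermin D into a pore-forming fragment. Caspase-11, encoded by Casp4 in the mouse annotation, binds lipopolysaccharide in the cytosol and cuts gasdermin D directly. Interleukin-1 action is held back by the receptor antagonist encoded by Il1rn and by the decoy receptor encoded by Il1r2. Messenger RNA levels do not report whether the proteins were cut or released.

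The sequences before the start sites of 4 of the genes are shown because Il1b and Nlrp3 fell together in the libraries labelled IRF7-/- c-kit+, and because Casp1 and Casp4, which lie 1562 bases apart on the same strand, moved in opposite directions. RefSeq sequences on GRCm38.p6 were found for 9 of the 10 genes, and Gsdmd had no entry. Each line gives the 250 bases before 1 annotated start, 5′ to 3′ on the strand of the gene, with matched motifs in capitals. Motifs were searched on both strands. They were the TATA box with the letters TATAAA, the core of sites for interferon regulatory factors with the letters AANNGAAA, the AP-1 motif with the letters TGANTCA, the PU.1 motif with the letters GAGGAAG, and the NF-kappaB consensus.
Il1b, chr2:129371140-129371389, minus strand: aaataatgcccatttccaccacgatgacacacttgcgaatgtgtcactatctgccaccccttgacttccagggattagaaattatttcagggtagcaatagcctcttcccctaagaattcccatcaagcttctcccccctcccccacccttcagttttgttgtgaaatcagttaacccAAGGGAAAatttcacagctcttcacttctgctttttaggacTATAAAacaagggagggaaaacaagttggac
Nlrp3, chr11:59541319-59541568, plus strand: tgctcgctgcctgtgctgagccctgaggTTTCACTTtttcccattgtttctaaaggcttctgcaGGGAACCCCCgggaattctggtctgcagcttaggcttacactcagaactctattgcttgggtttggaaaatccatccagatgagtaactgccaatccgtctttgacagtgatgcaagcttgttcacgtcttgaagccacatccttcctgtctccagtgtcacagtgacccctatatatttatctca
Casp1, chr9:5298267-5298516, plus strand: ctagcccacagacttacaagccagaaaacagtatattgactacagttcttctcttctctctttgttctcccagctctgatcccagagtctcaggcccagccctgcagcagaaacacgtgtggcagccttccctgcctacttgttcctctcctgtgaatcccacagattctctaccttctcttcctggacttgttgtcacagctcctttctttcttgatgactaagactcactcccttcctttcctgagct
Casp4, chr9:5308599-5308848, plus strand: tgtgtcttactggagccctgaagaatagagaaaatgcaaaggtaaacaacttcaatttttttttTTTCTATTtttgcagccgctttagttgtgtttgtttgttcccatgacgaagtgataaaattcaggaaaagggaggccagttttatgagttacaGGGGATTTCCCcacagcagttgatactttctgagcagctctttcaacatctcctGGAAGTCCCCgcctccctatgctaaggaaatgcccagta
In Il1b the interferon regulatory factor core lay at -72 to -65 and the TATA box at -31 to -26, counted from the start. In Nlrp3 the interferon regulatory factor core lay at -222 to -215 on the minus strand and the NF-kappaB consensus at -186 to -177. In Casp4 the interferon regulatory factor core lay at -186 to -179 on the minus strand. The NF-kappaB consensus matched Casp4 in overlapping windows between -93 and -83 and again at -39 to -30. None of the 5 motifs was matched in the Casp1 window. The interferon regulatory factor core was not particular to the genes shown, and was also matched before annotated starts of Il18, Il1rn and Pycard. Other annotated starts, not printed, held further matches: 2 of this core and 2 of the PU.1 motif for Nlrp3, and 1 of this core at -9 to -2 for Casp4. Of 32851 promoters of this length, 21.3% held the interferon regulatory factor core, 12.4% the TATA box, 7.25% the NF-kappaB consensus, 6.75% the AP-1 motif and 10.6% the PU.1 motif. These matches describe letters in a window and do not show that a factor was bound.

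The labels were checked first. Irf7, the gene removed in the knockout, was 23.50, 22.28 and 32.33 TPM (a level scaled by gene length and then by library total) in WT c-kit- libraries 1, 2 and 3, and 5.31, 3.91 and 3.36 TPM in WT c-kit+. The libraries labelled IRF7-/- c-kit+ held 12.81, 5.97 and 7.95 TPM, more than any WT c-kit+ library, which goes against a knockout label. The log2 fold change of Irf7 between the c-kit+ groups was 0.89 (SE 0.27, limma adjusted p = 0.0321). It lost the threshold in 7 of 13 alternative settings (limma adjusted p up to 0.0944). The paper reports a check of IRF7 in its leukemia models by qRT-PCR and Western blot. The knockout allele lacks only some exons and the table gives 1 value per gene, so the Irf7 level here does not say whether functional transcript was made. The labelled group is therefore named by its label, and each direction given for it rests on that label. Kit followed the sort, with at most 3.03 TPM in WT c-kit-, 50.69 to 58.50 TPM in WT c-kit+ and 70.26 to 85.68 TPM in the labelled libraries. Between the c-kit+ groups its log2 fold change was 0.58 (SE 0.10, limma adjusted p = 0.00385), and it missed the threshold in 1 fit of all 9 libraries (limma adjusted p = 0.136). The leukemia markers Hoxa9 (161.83 to 278.87 TPM) and Meis1 (35.39 to 67.87 TPM) were present in all libraries. Of the markers of other lineages, Ms4a1, Cd3e, Trac, Ncr1 and Ppbp were listed at 0 in at least 1 library, while the B cell marker Cd79b was 25.78 to 37.12 TPM in all 9. Summed levels ran from 0.8 to 13.01 TPM for 5 megakaryocyte and platelet genes and from 20.0 to 84.28 TPM for 5 mast cell and basophil genes. The 8 T and NK cell genes summed to 1.04 to 3.58 TPM in WT c-kit- and 91.58 to 194.1 TPM in the c-kit+ libraries, where nearly all of it came from Nkg7. WT c-kit- library 3 stood apart from the others of its group in a list of 13 neutrophil maturation genes, which summed to 32590 TPM there and to 6749 and 8301 TPM in libraries 1 and 2. The sum was 58130 to 113400 TPM in WT c-kit+ and 1879 to 2821 TPM in the libraries labelled IRF7-/- c-kit+. A list of 14 monocyte and macrophage genes summed to 4622 to 5721 TPM in WT c-kit-, 2186 to 2532 TPM in WT c-kit+ and 2592 to 3173 TPM in the labelled libraries. In bulk RNA, fewer cells of a type and less RNA per cell cannot be told apart.

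Groups were compared with limma on log2(TPM + 1), so a log2 fold change understates the change of low genes. A gene was called when its Benjamini-Hochberg adjusted p over all genes tested was under 0.05 and its log2 fold change was at least 1 in size. Of the 10 genes, 9 passed the filter on low values in each comparison, and Il18 did not. Between the WT groups, 2 of the 9 were called lower in WT c-kit+, Nlrp3 and Pycard, and 0 higher, while 9.61% of the 13261 genes tested were called lower and 4.83% higher. By adjusted p alone, 3 were lower and 1 higher, against 27.6% and 14.0% of all genes. These WT calls depended on the scaling of the libraries. With quantile normalization or median-of-ratios scaling, Pycard missed a log2 fold change of 1 and Casp4 was called higher in WT c-kit+. Between the c-kit+ groups, 3 of 9 were called lower in the libraries labelled IRF7-/- c-kit+ (Il1b, Il1r2 and Nlrp3) and 0 higher, while 5.39% of 13238 genes were called lower and 6.3% higher. By adjusted p alone, 5 were lower and 2 higher, against 16.1% and 31.9% of all genes. Against WT c-kit-, those 3 genes were again called lower and 0 higher, while 11.9% of 13510 genes were called lower and 8.4% higher. By adjusted p alone, 6 were lower and 0 higher, against 28.7% and 30.7% of all genes. In both comparisons with the labelled libraries, Il1b and Nlrp3 met the filter on low values through the WT libraries, where they were high. For Il1b a tested difference was thus bound to be a fall. The median log2 fold change over the 9 genes was -0.24, -0.34 and -0.53 in these 3 comparisons, and over all genes tested it was -0.08, 0.12 and 0.03. The comparisons share groups and are not independent of each other. Values did not overlap between the groups for 6, 7 and 6 of the 9 genes tested in these comparisons, while 54.4%, 59.1% and 67.1% of all genes tested did not overlap.

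**Figure D1:**
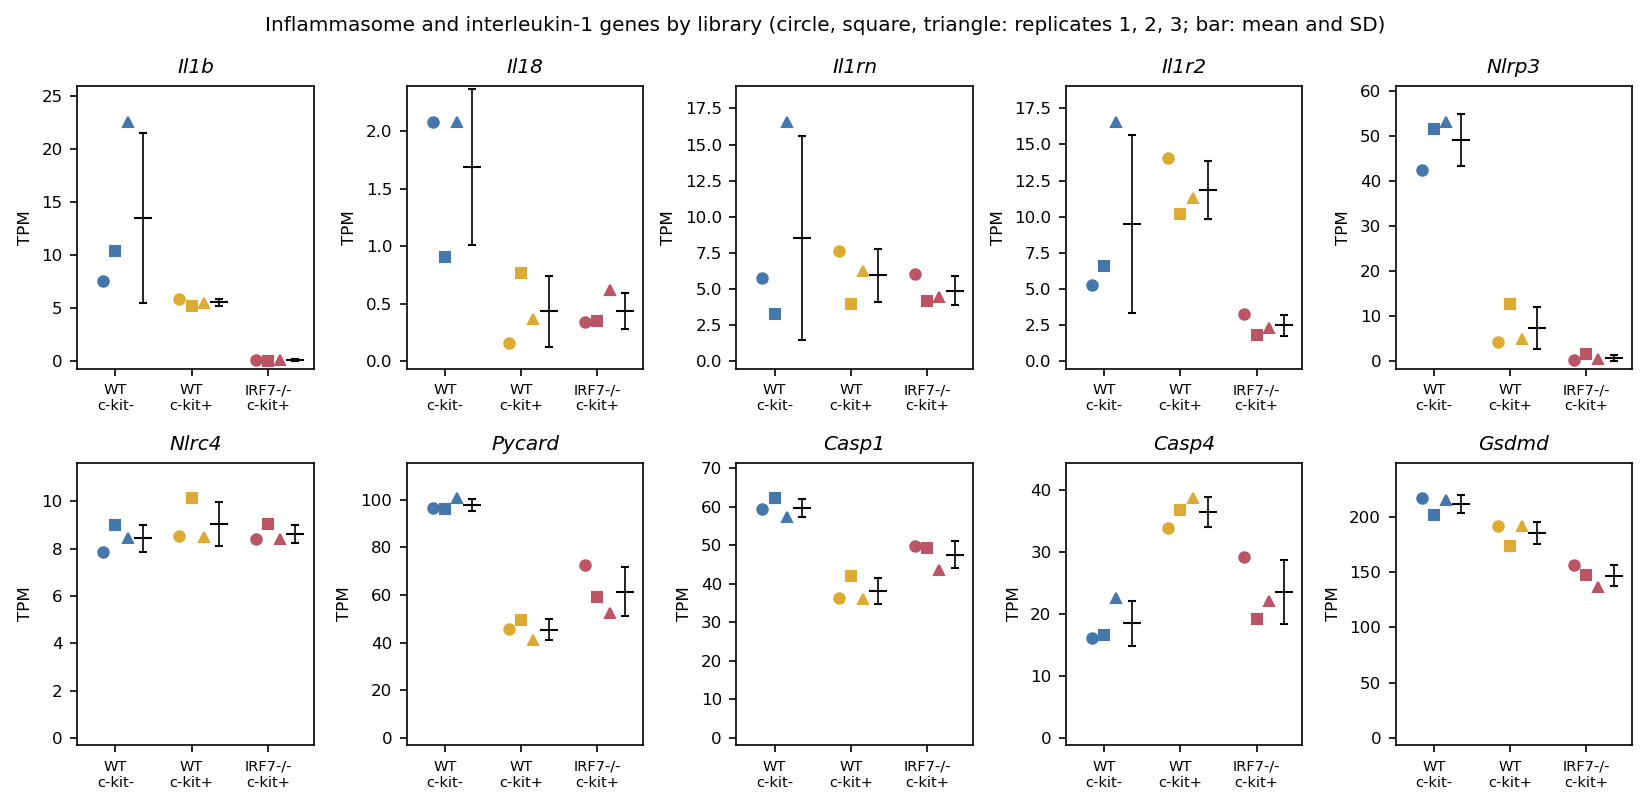
TPM (vertical axes, each from 0) of the 10 genes in the 3 libraries of each group, with the mean and SD of the group beside the points. Nlrp3 and Pycard are highest in WT c-kit-, Casp4 is highest in WT c-kit+, Il1b is at most 0.16 TPM in the libraries labelled IRF7-/- c-kit+, and Nlrc4 lies between 7.86 and 10.12 TPM throughout.

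Il1b, which encodes the cytokine interleukin-1 beta, was the member with the lowest level in the libraries labelled IRF7-/- c-kit+. It was 7.54, 10.40 and 22.56 TPM in WT c-kit-, 5.88, 5.26 and 5.54 TPM in WT c-kit+, while the labelled libraries had 0.15, 0 and 0.16 TPM. All 3 groups were separate, with WT c-kit- highest and the labelled libraries near 0. Il1b fell between the c-kit+ groups, by a log2 fold change of -2.57 in the labelled libraries (SE 0.13, limma adjusted p = 5.09e-05). It passed the filter on low values only through the WT c-kit+ libraries, so a tested difference was bound to be a fall, and with no filter the limma adjusted p was 0.000546. With a pseudocount of 0.1 in place of 1 this was -4.92 (limma adjusted p = 0.000398). Between the WT groups the log2 fold change was -1.01 (SE 0.35, limma adjusted p = 0.0583), which missed the threshold. That value depended on WT c-kit- library 3, the library with the high neutrophil sum, where Il1b was also highest: without it the log2 fold change was -0.59 with a smaller spread (SE 0.16, limma adjusted p = 0.034). Without WT c-kit- library 1 it was -1.32 (limma adjusted p = 0.0217). In 1 fit of all 9 libraries it was -1.01 and met both thresholds (SE 0.32, limma adjusted p = 0.0282). The neutrophil list was lower in the labelled libraries along with Il1b, with 11 of its 13 genes called lower against WT c-kit+, and its part in the result was not tested. The genes of this list went different ways between the WT groups. The 4 called higher in WT c-kit+ were S100a8, S100a9, Camp and Ngp, which carry most of the sum. The 1 called lower was Mmp8, named after its values were seen, with means of 74.63 TPM in WT c-kit- and 4.68 TPM in WT c-kit+, and the other 8 did not pass. Il1b lies on chr2:129364570-129371139 (GRCm38, minus strand) and overlaps the antisense gene Il1bos, and the sources used here do not say if the quantification was stranded.

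Il18, the other cytokine cut by caspase-1, was at a low level in every group. It was 2.08, 0.91 and 2.08 TPM in WT c-kit-, 0.16, 0.77 and 0.37 TPM in WT c-kit+, whereas the labelled libraries had 0.34, 0.35 and 0.62 TPM. The WT c-kit- libraries were above all others, and both c-kit+ groups overlapped. It reached 1 TPM in too few libraries to be tested. With no filter on low values its log2 fold change was -0.90 from WT c-kit- to WT c-kit+ (SE 0.26, limma adjusted p = 0.0652) and 0.02 from WT c-kit+ to the labelled libraries (SE 0.17, limma adjusted p = 0.952). Il18 overlaps Bco2 and Tex12 on the other strand.

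The receptor antagonist and the decoy receptor behaved differently from each other. Il1rn was 5.75, 3.29 and 16.57 TPM in WT c-kit-, 7.61, 3.99 and 6.26 TPM in WT c-kit+, against 6.03, 4.15 and 4.48 TPM in the labelled libraries. All groups overlapped, and the highest value was again in WT c-kit- library 3. Between the c-kit+ groups the log2 fold change of Il1rn was -0.22, with a 95% interval from -0.76 to 0.33 (limma adjusted p = 0.464). Between the WT groups it was -0.24 with a wider interval, from -1.45 to 0.98 (limma adjusted p = 0.744), and without WT c-kit- library 3 it was 0.33 (limma adjusted p = 0.432). Il1r2 was 5.31, 6.57 and 16.55 TPM in WT c-kit-, 14.08, 10.15 and 11.32 TPM in WT c-kit+, but 3.28, 1.84 and 2.32 TPM in the labelled libraries. The labelled libraries were below all others, and the WT groups overlapped through WT c-kit- library 3 alone. Il1r2 fell between the c-kit+ groups, with a log2 fold change of -1.89 (SE 0.19, limma adjusted p = 0.000528). Between the WT groups the change was 0.44 on the log2 scale (SE 0.38, limma adjusted p = 0.398), and without WT c-kit- library 3 it was 0.88 (limma adjusted p = 0.0104). Against WT c-kit- the labelled libraries had a log2 fold change of -1.46 (SE 0.39, limma adjusted p = 0.0163), and without labelled library 2 it was -1.32 and missed the threshold (limma adjusted p = 0.0514).

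Set against its inhibitors within each library, Il1b was lowest in the labelled libraries. The ratio of Il1b to Il1rn in TPM was 1.31, 3.16 and 1.36 in WT c-kit-, 0.773, 1.32 and 0.885 in WT c-kit+, but 0.0249, 0 and 0.0357 in the labelled libraries. The WT groups overlapped in this ratio, and the labelled libraries were apart from both. The ratio of Il1b to Il1r2 was 1.36 to 1.58 in WT c-kit-, 0.418 to 0.518 in WT c-kit+ and 0 to 0.069 in the labelled libraries, with no overlap of groups. Because WT c-kit- library 3 was high in Il1b and in both inhibitors, its ratios lay within or next to those of libraries 1 and 2.

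**Figure D2:**
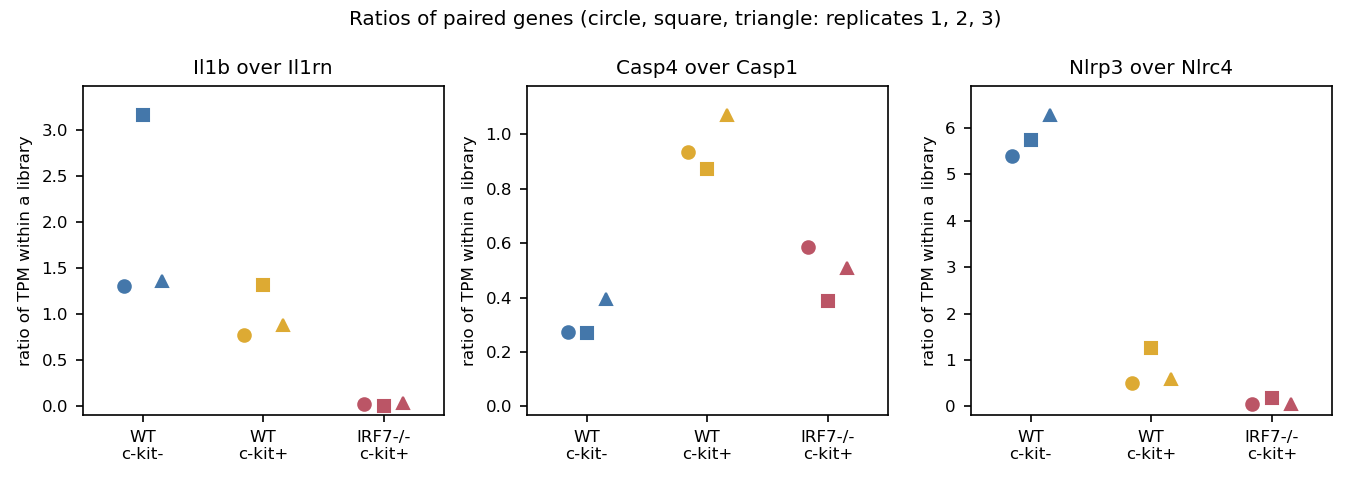
Ratios of TPM within each of the 9 libraries for Il1b over Il1rn, Casp4 over Casp1 and Nlrp3 over Nlrc4. Casp4 over Casp1 is at most 0.394 in WT c-kit- and at least 0.874 in WT c-kit+, and Nlrp3 over Nlrc4 is at least 5.39 in WT c-kit- and at most 0.170 in the libraries labelled IRF7-/- c-kit+.

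Nlrp3, the sensor that responds to ion fluxes and cell damage, differed by the largest fold between groups among the sensors and the adaptor. It was 42.38, 51.60 and 53.07 TPM in WT c-kit-, 4.31, 12.70 and 4.92 TPM in WT c-kit+, and it was down to 0.35, 1.54 and 0.50 TPM in the libraries labelled IRF7-/- c-kit+. The 3 groups were separate and stepped down in that order. The mean was 6.71-fold lower in WT c-kit+ than in WT c-kit-, with a log2 fold change of -2.72 (SE 0.35, limma adjusted p = 0.0011), and it was a further 9.18-fold lower in the labelled libraries (log2 fold change -2.13, SE 0.41, limma adjusted p = 0.0061). Of the labelled libraries only library 2 reached 1 TPM. Nlrp3 thus met the filter on low values through the WT libraries, and the filter favoured a fall. In the alternatives where it was tested between the c-kit+ groups, no filter among them, its limma adjusted p was at most 0.024. In both c-kit+ groups library 2 was the highest for Nlrp3. In the same groups library 2 was also the highest for Flt3, a gene of the leukemia progenitor list. Flt3 was 18.55 TPM there against 6.72 and 11.19 TPM in WT c-kit+, and 56.87 TPM against 8.65 and 7.93 TPM in the labelled libraries. Other genes of that list did not all follow. Labelled library 2 was the lowest of its group for Kit, Hoxa9 and Meis1, and WT c-kit+ library 2 was the highest for Kit and the lowest for Hoxa9. Flt3 itself was called lower in WT c-kit+ than in WT c-kit- (log2 fold change -2.24, limma adjusted p = 0.00448). The part of these genes in the level of Nlrp3 was not tested. The monocyte list fell with Nlrp3 from WT c-kit- to WT c-kit+, with 8 of 12 genes tested called lower and 3 called higher. Csf1r, the receptor that defines the monocyte lineage, was 380.06 to 422.93 TPM in WT c-kit- and 36.08 to 65.53 TPM in WT c-kit+. Between the c-kit+ groups, 1 of 10 monocyte genes tested was called lower in the labelled libraries, and by adjusted p alone 5 were lower and 2 higher. Csf1r was among those lower, at 24.99 to 32.77 TPM (limma adjusted p = 0.0244), while Ccr2 and Adgre1 were higher. The part of monocytic cells in the level of Nlrp3 was not tested.

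**Figure D3:**
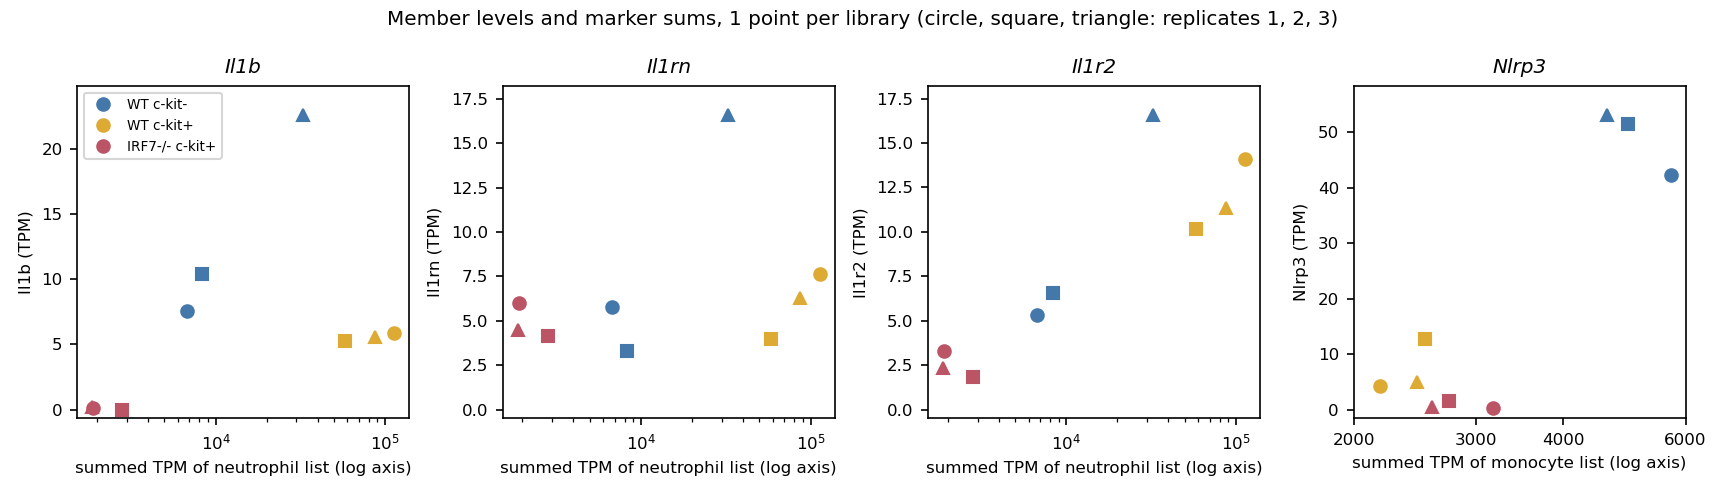
TPM of Il1b, Il1rn and Il1r2 against the summed TPM of 13 neutrophil maturation genes, and of Nlrp3 against the summed TPM of 14 monocyte and macrophage genes (log horizontal axes), with 1 point per library. WT c-kit- library 3 has a neutrophil sum of 32590 TPM and the highest Il1b, Il1rn and Il1r2, and the 3 WT c-kit- libraries are highest in both the monocyte sum and Nlrp3.

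Nlrc4, the sensor that joins NAIP proteins bound to bacterial flagellin or secretion needles, was nearly level. It was 7.86, 8.98 and 8.45 TPM in WT c-kit-, 8.52, 10.12 and 8.47 TPM in WT c-kit+, with 8.40, 9.04 and 8.42 TPM in the labelled libraries. All groups overlapped. The log2 fold change was 0.09 from WT c-kit- to WT c-kit+ (95% interval -0.18 to 0.36, limma adjusted p = 0.575) and -0.06 from WT c-kit+ to the labelled libraries (95% interval -0.30 to 0.19, limma adjusted p = 0.674). Nlrp3 was 5.39 to 6.28 times the level of Nlrc4 in WT c-kit-, and the ratio was 0.506 to 1.26 in WT c-kit+ and 0.0417 to 0.170 in the labelled libraries. An annotated processed pseudogene overlaps Nlrc4 on the same strand, and reads of both could be split between them.

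Pycard encodes ASC, the adaptor that both sensors can use. It was 96.71, 96.00 and 100.58 TPM in WT c-kit-, 45.73, 49.69 and 40.95 TPM in WT c-kit+, and in between, at 72.52, 59.21 and 52.51 TPM, in the labelled libraries. The 3 groups did not overlap, and WT c-kit+ was lowest. Pycard fell between the WT groups, with a log2 fold change of -1.09 in WT c-kit+ (SE 0.08, limma adjusted p = 0.000103). With quantile normalization or median-of-ratios scaling, Pycard had log2 fold changes of -0.91 and -0.99 there, short of a call. Between the c-kit+ groups it was higher in the labelled libraries by 0.42 on the log2 scale (SE 0.13, limma adjusted p = 0.0347), of which 0.30 lay above the median change of the genes tested. That rise passed the threshold in 6 of 13 alternative settings, and with median-of-ratios scaling of the libraries it was 0.29 (limma adjusted p = 0.114).

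Casp1 and Casp4, neighbours on chromosome 9 (chr9:5298517-5307265 and chr9:5308828-5336783, GRCm38, plus strand), had their highest levels in different groups. Casp1, which encodes the enzyme that matures interleukin-1 beta, was 59.36, 62.19 and 57.41 TPM in WT c-kit-, 36.22, 42.10 and 36.06 TPM in WT c-kit+, and again in between, at 49.85, 49.32 and 43.51 TPM, in the labelled libraries. No groups overlapped. Casp1 fell between the WT groups, with a log2 fold change of -0.64 in WT c-kit+ (SE 0.08, limma adjusted p = 0.001). It was higher in the labelled libraries than in WT c-kit+ by 0.31 on the log2 scale (SE 0.09, limma adjusted p = 0.0254), of which 0.19 lay above the median change, and it passed in 7 of 13 alternative settings. With median-of-ratios scaling it was 0.18 (limma adjusted p = 0.122).

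Casp4 was 16.13, 16.66 and 22.62 TPM in WT c-kit-, 33.91, 36.79 and 38.61 TPM in WT c-kit+, and fell back to 29.23, 19.16 and 22.08 TPM in the labelled libraries. WT c-kit+ was above every other library, while WT c-kit- and the labelled libraries overlapped. Casp4 rose from WT c-kit- to WT c-kit+ by 0.96 on the log2 scale (SE 0.14, limma adjusted p = 0.00172) and was lower in the labelled libraries than in WT c-kit+, with a log2 fold change of -0.63 (SE 0.15, limma adjusted p = 0.0131). Its rise between the WT groups was 1.11 with quantile normalization (limma adjusted p = 0.000988) and 1.06 with median-of-ratios scaling (limma adjusted p = 0.00162), enough for a call. Casp4 was 0.268 to 0.394 of the level of Casp1 in WT c-kit-, 0.874 to 1.07 in WT c-kit+ and 0.389 to 0.586 in the labelled libraries. In WT c-kit+ the level of Casp4 thus came close to that of Casp1, and in library 3 it was above it.

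Gsdmd, which encodes the pore-forming protein cut by both caspases, had the highest level of the 10 genes in every library. It was 216.51, 201.90 and 215.48 TPM in WT c-kit-, 191.26, 173.60 and 191.27 TPM in WT c-kit+, and lowest, at 156.10, 147.22 and 136.68 TPM, in the labelled libraries. The groups did not overlap and stepped down in that order, as they did for Il1b and Nlrp3, but by far less. Gsdmd fell between the c-kit+ groups, with a log2 fold change of -0.34 (SE 0.07, limma adjusted p = 0.00797). Between the WT groups it was -0.19 (SE 0.06, limma adjusted p = 0.0534), it was -0.08 with median-of-ratios scaling (limma adjusted p = 0.386), and it passed when all 9 libraries were fitted together (limma adjusted p = 0.0434).

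**Figure D4:**
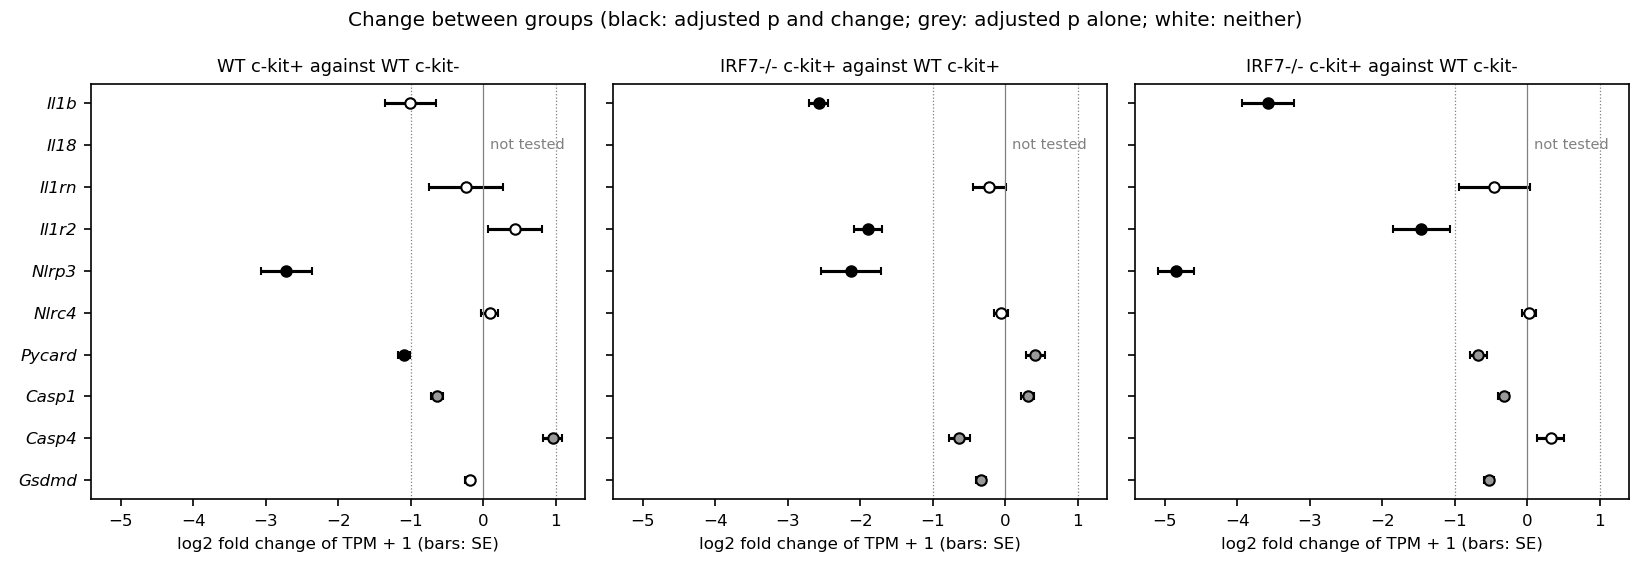
Log2 fold change of TPM + 1 with its standard error for the 9 genes tested in each comparison, named first group against second. Black points met the adjusted p and the change of at least 1, grey points the adjusted p alone and white points neither. Nlrp3 is called lower in all 3 panels, at -2.72, -2.13 and -4.85, and Casp4 lies on the right at 0.96 in WT c-kit+ against WT c-kit- and on the left at -0.63 in IRF7-/- c-kit+ against WT c-kit+.

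The libraries labelled IRF7-/- c-kit+ were also set against WT c-kit-, which differ from them in the sort as well as in the label. Nlrp3 had a log2 fold change of -4.85 (SE 0.25, limma adjusted p = 1.65e-05) and Il1b one of -3.58 (SE 0.36, limma adjusted p = 0.000228). Both met the filter on low values through the WT c-kit- libraries, and for Il1b a tested difference was bound to be a fall. In the alternatives where Il1b was tested here, no filter among them, its limma adjusted p was at most 0.00149. Pycard, Gsdmd and Casp1 were lower by adjusted p alone, with log2 fold changes of -0.67, -0.53 and -0.32. Il1rn, Casp4 and Nlrc4 did not pass. By mean level, the order of the groups was WT c-kit-, WT c-kit+ and then the labelled libraries for Il1b, Il1rn, Nlrp3 and Gsdmd. It was WT c-kit-, the labelled libraries and then WT c-kit+ for Pycard and Casp1. For Il1r2 and Casp4 WT c-kit+ came first. For Il1rn no neighbours in this order differed beyond their spread, and the same was true of Nlrc4.

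The wider pathway was read from a list of 56 other genes, ordered by role. Between the WT groups, 45 were tested, of which 5 were called higher and 8 lower, and by adjusted p alone 8 were higher and 26 lower. Of all genes tested, 4.83% were called higher and 9.61% lower, and 14.0% and 27.6% by adjusted p alone. The median log2 fold change of the 45 was -0.45, and -0.08 over all genes. Between the c-kit+ groups, 43 were tested, of which 3 were called higher and 4 lower, and by adjusted p alone 8 were higher and 9 lower, with a median of -0.02. Of all genes tested there, 6.3% were called higher and 5.39% lower, and 31.9% and 16.1% by adjusted p alone, with a median of 0.12. These shares also stand beside the counts by role that follow. Of the 7 calls between the c-kit+ groups, 3 (Gbp2, Il18rap and Nlrp1a) were met both without WT c-kit+ library 1 and without WT c-kit+ library 3. In those settings Il1f9 and Il18r1 were not tested, since too few libraries reached 1 TPM, Trim30a missed the adjusted p, and Nlrp12 missed a log2 fold change of 1. Against WT c-kit-, 44 were tested, with 4 called higher and 9 lower, while 8.4% of all genes tested were called higher and 11.9% lower.

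Among the sensors, 11 were tested between the WT groups, and 3 were called lower and 1 higher. Nlrp1a and Nlrp1b, which encode NLRP1 sensors, fell from means of 9.46 and 1.85 TPM in WT c-kit- to 2.00 and 0.147 TPM in WT c-kit+. Nlrp1b reached 1 TPM in the WT c-kit- libraries alone, so its tested difference was bound to be a fall. Naip6, a partner of NLRC4 that binds flagellin, fell from 46.28 to 18.24 TPM. Nlrp12, a family member expressed in neutrophils and their precursors, rose from 1.30 to 7.81 TPM with a log2 fold change of 2.04 (SE 0.34, limma adjusted p = 0.00332). In the labelled libraries Nlrp12 was lower than in WT c-kit+, at 3.37 TPM with a log2 fold change of -1.01 (SE 0.16, limma adjusted p = 0.00276), and Nlrp1a rose to 6.56 TPM with one of 1.34 (SE 0.13, limma adjusted p = 0.000406). Nlrp1a and Nlrp1b are near copies of each other, as are the Naip genes, and reads could be split between the copies.

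Among the genes of assembly and regulation, 5 were called lower and 1 higher between the WT groups. P2rx7, the ATP-gated channel whose opening activates NLRP3, fell from a mean of 38.95 TPM in WT c-kit- to 3.84 TPM in WT c-kit+, with a log2 fold change of -3.06 (SE 0.15, limma adjusted p = 2.62e-05). Card6 fell from 3.67 to 0.663 TPM and Gbp2, an interferon-induced guanylate-binding protein, from 3.86 to 1.28 TPM. This call of Gbp2 was not firm: it was lost with no filter on low values, quantile normalization, median-of-ratios scaling or a replicate block, among other settings. Card6 met the filter on low values through the WT c-kit- libraries, with 1 WT c-kit+ library reaching 1 TPM, so the filter favoured a fall. The other genes called lower were Txnip and Trim30a, named after their values were seen, at 223.6 and 38.02 TPM in WT c-kit- and 86.91 and 15.49 TPM in WT c-kit+. Serpinb1a, an inhibitor of neutrophil serine proteases, rose from 70.51 to 608.4 TPM with a log2 fold change of 3.15 (SE 0.23, limma adjusted p = 9.71e-05). In the labelled libraries Serpinb1a was 555.9 TPM and did not pass against WT c-kit+ (limma adjusted p = 0.122), while Gbp2 rose to 8.07 TPM with a log2 fold change of 1.91 (SE 0.36, limma adjusted p = 0.00573) and Trim30a to 37.05 TPM with one of 1.12 (SE 0.30, limma adjusted p = 0.0215). P2rx7 fell further by adjusted p alone, to 2.14 TPM.

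Among the other ligands of the family, only Il1f9, which encodes the gamma form of interleukin-36, passed the filter in these comparisons. It fell from a mean of 11.01 TPM in WT c-kit+ to 0.79 TPM in the labelled libraries (log2 fold change -2.70, SE 0.23, limma adjusted p = 0.00028). Of the receptors and decoys, 3 were called higher and 0 lower from WT c-kit- to WT c-kit+: Il18rap, a subunit of the interleukin-18 receptor, rose from 23.46 to 57.71 TPM, Il18bp, which binds interleukin-18, from 3.97 to 10.67 TPM, and Il1rl2, a subunit of the interleukin-36 receptor, from 3.28 to 9.997 TPM. The call of Il18rap between the WT groups was lost with no filter on low values and when some single libraries were left out. Both subunits of the interleukin-18 receptor were called lower in the labelled libraries than in WT c-kit+. Il18rap fell to 23.09 TPM (log2 fold change -1.28, SE 0.10, limma adjusted p = 0.000171) and Il18r1 fell from 3.90 to 0.05 TPM (log2 fold change -2.19, SE 0.21, limma adjusted p = 0.000467). Among the libraries of the c-kit+ groups, Il1f9 and Il18r1, like Il1b, reached 1 TPM in WT c-kit+ alone. They passed the filter of that comparison only through WT c-kit+, so their tested differences were bound to be falls. With no filter their limma adjusted p was 0.00188 and 0.0021. Il18bp and Il1rl2 were 10.08 and 10.58 TPM in the labelled libraries and did not pass.

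None of the 5 other caspases and pore formers tested and none of the 11 genes of receptor signalling was called between the WT groups or between the c-kit+ groups, and by adjusted p alone 3 and 7 of them were lower and 1 and 1 higher from WT c-kit- to WT c-kit+. Against WT c-kit-, 2 genes of receptor signalling were called lower in the labelled libraries, Irak2 (log2 fold change -1.02, SE 0.16, limma adjusted p = 0.00163) and Peli1 (log2 fold change -1.03, SE 0.11, limma adjusted p = 0.00026), both named after their values were seen. Il1r1, the signalling receptor for interleukin-1, was named after its values were seen: its means were 1.87, 1.84 and 2.18 TPM in WT c-kit-, WT c-kit+ and the labelled libraries.

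**Figure D5:**
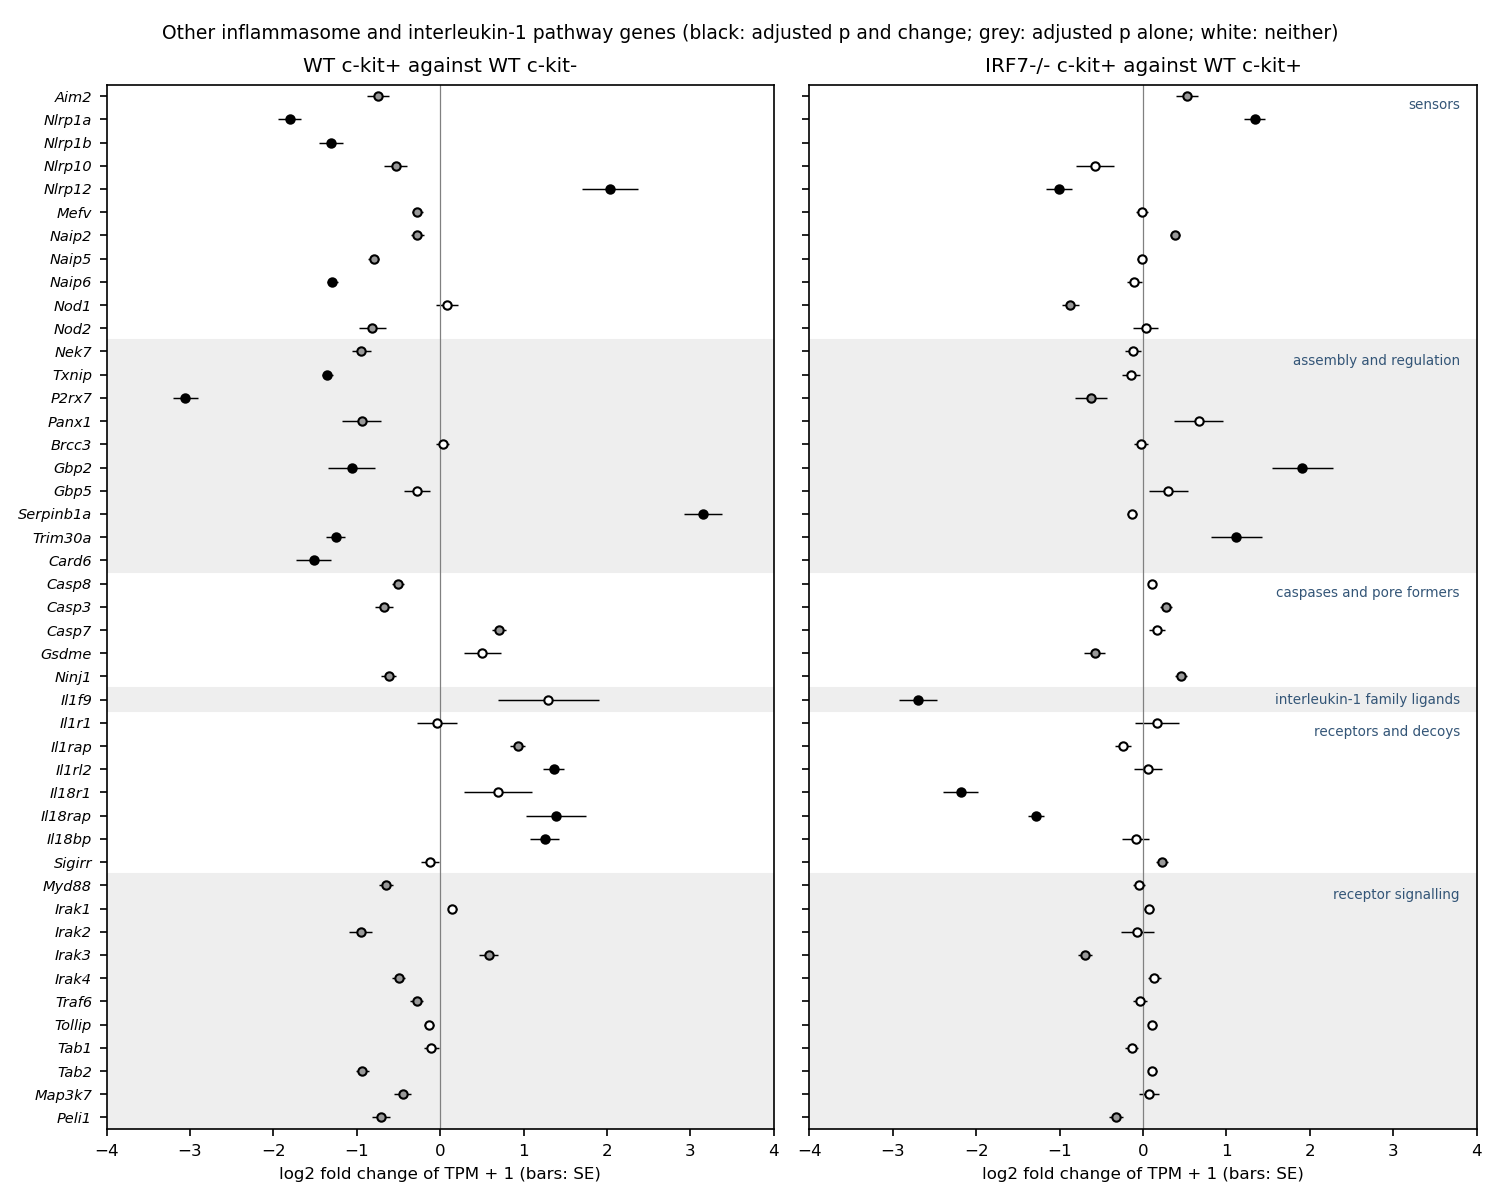
Log2 fold change of TPM + 1 with its standard error for the other pathway genes tested, grouped by role, in WT c-kit+ against WT c-kit- (left) and IRF7-/- c-kit+ against WT c-kit+ (right). Black points met the adjusted p and the change of at least 1, grey points the adjusted p alone and white points neither. P2rx7 at -3.06 and Serpinb1a at 3.15 mark the ends of the left panel, and Il1f9 at -2.70 and Gbp2 at 1.91 those of the right panel.

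The pattern of each gene over the 9 libraries was matched to 10284 genes with a mean of at least 5 TPM by Pearson r of log2(TPM + 1), given as a description since libraries of a group share their group. Among the members, Casp1 was most like Pycard (r = 0.968) and least like Casp4 (r = -0.848). Nlrp3 was most like Il1b among the members (r = 0.903), and Nrg1 outside them (r = 0.993). Il1b was most like Gsdmd among the members (r = 0.936) and Tle3 outside them (r = 0.991). Outside the members, Il1r2 was most like the neutrophil marker Ly6g (r = 0.978), Casp1 like Emc9 (r = 0.991), Casp4 like Larp1b (r = 0.970), Pycard like Trafd1 (r = 0.990) and Gsdmd like Srgap2 (r = 0.988). The values were lower for Il18 with Trim41 (r = 0.955), Il1rn with Ago4 (r = 0.939) and Nlrc4 with Alkbh1 (r = 0.928).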

How the data were processed

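Leukemia cells were sorted from mouse bone marrow, and libraries for RNA-seq were made with an Illumina TruSeq RNA kit per the labels. The deposited table holds TPM of 55536 genes in 9 libraries, for which the authors quantified reads per gene and divided by gene length and by the total of the library. The unit is not named in the header and was inferred from library sums of 987467.65 to 992230.98. The aligner, genome build and filters are not given in the sources used here, and the article speaks of a microarray. Every identifier matched GENCODE M21 (GRCm38), the source of the gene coordinates. TPM keep no depth, and a few abundant genes lower all others: the 10 most abundant genes held 13.1 to 17.3% of WT c-kit+ libraries and 9.39 to 10.3% of the others.

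Genes reaching 1 TPM in 3 or more of the 6 libraries compared were tested with limma 3.58.1 (lmFit, eBayes with trend) in R 4.3.3 on log2(TPM + 1). Every comparison was a fit of its 6 libraries alone, with Benjamini-Hochberg adjustment over all genes tested. Exact two-sided permutation tests of the 10 genes cannot go below p = 0.1 with 3 libraries against 3, and the members whose groups did not overlap stood at that value. The functions were tested on simulated data. Tables and plots were made in Python 3.11.15 (pandas 2.3.3, matplotlib 3.10.9).

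The 10 genes, the pathway list and the marker lists were chosen with earlier results of these data known. Some marker genes and the sums that include them are not reported here. Of the pathway list, up to 4 genes of each role with the largest changes among those called between the WT groups or between the c-kit+ groups are named, and others are marked. Alternatives were no filter on low values, a stricter filter (5 TPM), a smaller pseudocount (0.1), quantile normalization, median-of-ratios scaling, 1 fit of all 9 libraries, a replicate block, leaving out each library, and the adjusted p alone.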

Additional observations from a re-analysis of the deposited data

How the results depend on the processing

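No member change past the adjusted p reversed its direction under an alternative, while Il1rn and Nlrc4, which passed in no comparison, changed sign in some. Of 344 changes of single members under alternatives, 324 kept their side of the adjusted p threshold, 14 lost the threshold and 6 gained it. The changes of sign of Il1rn and Nlrc4 are among the 324. Dropping the demand for a log2 fold change of at least 1 raised the members counted from 2, 3 and 3 to 4, 7 and 6 in WT c-kit+ against WT c-kit-, IRF7-/- c-kit+ against WT c-kit+ and IRF7-/- c-kit+ against WT c-kit-. It raised the pathway list from 13, 7 and 13 to 34, 17 and 28, and all genes from 1916, 1548 and 2738 to 5519, 6357 and 8023. A filter of 5 TPM lowered all genes called in IRF7-/- c-kit+ against WT c-kit+ to 1015, since fewer genes are tested. Leaving out 1 library, the pathway list in IRF7-/- c-kit+ against WT c-kit+ ranged from 3 to 7. In that comparison Il1b was not tested when a WT c-kit+ library was left out, nor Nlrp3 with the 5 TPM filter, since too few libraries reached the minimum. Replicate numbers were not taken as pairs: deviations of same-numbered libraries correlated from -0.0712 to 0.237, and above 0.1 only for library 2 of the WT groups. Those of differently numbered libraries correlated from -0.184 to 0.144. In IRF7-/- c-kit+ against WT c-kit+, same-numbered libraries correlated from 0.0187 to 0.0968 and differently numbered ones from -0.096 to 0.0221. In IRF7-/- c-kit+ against WT c-kit-, same-numbered libraries correlated from 0.0451 to 0.0794 and differently numbered ones from -0.0523 to -0.00657. With a replicate block, Gsdmd in WT c-kit+ against WT c-kit- passed at an unchanged log2 fold change of -0.19 (limma adjusted p = 0.0436), and no other call of the 10 genes changed. Depth is unknown, so it is not known how many reads stand behind Il1b at 0.15 TPM.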
